A study of Mus musculus with 24 samples.

Results

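Surface molecules through which tumor cells meet natural killer (NK) cells, T cells and phagocytes were examined with 6 genes, Ulbp1, Mr1, Cd274, Pvr, Nectin2 and Cd47, out of 12091 genes in a table of RNA sequencing values from mouse breast cancer models. The samples were 24, in 4 experiments of 3 controls and 3 samples in which the growth factor pleiotrophin (PTN) was inhibited. The 6 genes were chosen by their differences between inhibited and control samples in these same 4 experiments, so those differences are given as a description, with no test. All 6 were found in the table by symbol, and all 6 passed the filter on low values in each experiment, namely a value of at least 1 off the log scale in at least 3 of 6 samples. Mr1 passed it in E0771-LG cells through the shPTN samples, in which it is high.

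4T1 is a mouse mammary carcinoma line that was implanted orthotopically in BALB/c mice. In MMTV-PyMT mice of the FVB/N strain, the mammary tumor virus promoter drives the polyoma middle T antigen in mammary epithelium, and treatment ran from 8 to 12 wk of age. Mice of both tumor models received 15 mg/kg of antibody 2 times a week, either C44, a control IgG, or 3B10, which binds PTN. E0771-LG goes back to a lung metastasis of E0771, a C57BL/6 mammary tumor line of low metastatic capacity. Both lines carried either pLKO.1-puro with a sequence against EGFP (plko in the labels; E0771shCtrl and E0771-LGshCtrl here) or an shRNA against Ptn (E0771shPTN and E0771-LGshPTN). The knockdown rests on 1 shRNA construct, and the puromycin-selected populations are separate, so an effect of the shRNA and a difference between populations cannot be told apart. The study names 3 biological replicates and does not say whether those of a cell line were separate cultures, so p-values measure the spread between these samples.

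Values of the MMTV-PyMT tumors and the cells were log2 CPM (counts scaled to library size) with an offset of 0.5 reads, from which whole reads were recovered. Reads on the genes of the table ranged from 15.56 to 21.01 M per sample over these 18 samples, with a median of 18.16 M. The MMTV-PyMT tumors had 18.69, 19.06 and 19.18 M with C44 and 16.2, 16.21 and 18.36 M with 3B10, each listed from lowest to highest, and no 3B10 library reached the smallest C44 library. E0771shCtrl samples had 16.53, 17.17 and 20.33 M, and E0771shPTN samples 15.56, 17.97 and 19.22 M. In E0771-LGshCtrl the reads were 17.21, 18.51 and 19.5 M, and in E0771-LGshPTN 17.34, 17.96 and 21.01 M. The 4T1 values had no steps of whole reads, so the depth of these 6 samples is unknown. They declined with gene length against the E0771-LG values and were treated as normalized for length, but their unit is not stated. Levels of 4T1 tumors are therefore compared only among themselves. Across genes, which are not independent replicates, r between samples of 1 group was at least 0.971 and at most 0.988 among 4T1 tumors, 0.967 and 0.981 among MMTV-PyMT tumors, 0.984 and 0.990 among E0771 samples, and 0.982 and 0.987 among E0771-LG samples.

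Defining markers were checked in both kinds of sample. The epithelial list of 6 genes (Epcam, Krt8, Krt18, Krt19, Cdh1 and Krt14) had no gene under 1 in any tumor, whereas in every E0771 sample 4 of the 6 were under 1 CPM, so several defining epithelial markers were absent or near absent from these cells. In E0771-LG cells 4 of 6 were under 1 with shCtrl and 3 of 6 with shPTN. Krt8 led the list in all cell samples. Markers of T and NK lymphocytes (8 genes) gave 0 to 12 reads in all per E0771 sample and 9 to 58 per E0771-LG sample, so the ligand genes were read in cultures with almost no lymphocyte transcripts.

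NK cells and T cells weigh activating against inhibitory signals from the surface of the cell they touch. NKG2D on NK cells and cytotoxic T cells binds stress-induced class I-like proteins such as ULBP1, whereas MR1 shows microbial vitamin B metabolites to mucosal-associated invariant T cells. PD-L1 (encoded by Cd274) engages PD-1 and dampens T cells, the poliovirus receptor (Pvr) and nectin-2 bind both the activating receptor CD226 and the inhibitory receptor TIGIT, and CD47 binds SIRPα on phagocytes as a signal not to be engulfed.

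Ptn, the gene that the shRNA targets, was read first. In E0771 cells its log2 CPM was 2.90, 2.18 and 2.28 with shCtrl and −0.63, 0.25 and 0.53 with shPTN. In E0771-LG cells the values were 3.65, 4.51 and 3.74 with shCtrl and 1.42, 0.98 and 1.38 with shPTN. No shPTN value reached the lowest shCtrl value of its line. In E0771 cells Ptn fell by 2.40 (SE 0.37, limma adjusted p = 0.00159, lower in 3 of 3 samples), and in E0771-LG cells by 2.71 (SE 0.28, limma adjusted p = 6.3e-05, lower in 3 of 3 samples). An antibody acts on the protein, and the tumors showed no such difference in Ptn transcript. In MMTV-PyMT tumors log2 CPM was 2.80, 2.73 and 3.42 with C44 and 3.28, 2.95 and 4.22 with 3B10 (difference 0.50, SE 0.37, adjusted p = 1 by limma, above the C44 mean in 2 of 3 samples), and in 4T1 tumors the values, −0.76 to 0.86, were below the filter.

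Ulbp1 (ENSMUSG00000079685), the NKG2D ligand of the group, is at 7440362 to 7473638 of chromosome 10 (GRCm38, minus strand) with 6.73 kb of exon. Promoters, 250 bases before to 50 bases after the start, were taken from RefSeq on GRCm38.p6, where 5 of the 6 genes were matched. They were searched on both strands for the letters GAAANNGAA (interferon regulatory factors), TTCNNNGAA (STAT factors), TGANTCA (AP-1), GGGCGG (GC box) and TATAAA, and for the NF-kB motif. Of 32851 RefSeq promoters, 8.56% hold GAAANNGAA, 8.3% TTCNNNGAA, 7.81% TGANTCA, 8.46% the NF-kB motif, 35.7% GGGCGG and 13.6% TATAAA. Among the 12034 promoters of genes in the table the shares are 7.03%, 6.66%, 5.45%, 10.7%, 62.9% and 7.21%, in the same order. Ulbp1, Mr1 and Cd274 are shown because the widest differences in cells and in tumors were theirs. The Ulbp1 promoter (chr10:7473428-7473727, minus strand), whose start is 161 bases from that of GENCODE, has 57.3% G and C and holds none of these motifs.
Ulbp1: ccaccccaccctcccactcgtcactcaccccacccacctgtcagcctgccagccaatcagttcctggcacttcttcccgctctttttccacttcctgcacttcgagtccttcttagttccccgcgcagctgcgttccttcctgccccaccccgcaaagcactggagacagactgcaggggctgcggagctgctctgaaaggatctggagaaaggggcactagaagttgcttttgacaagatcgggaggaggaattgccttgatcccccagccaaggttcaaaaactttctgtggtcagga

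In the cells Ulbp1 was lower in both knockdowns. Its log2 CPM was 6.83, 7.01 and 6.77 in E0771shCtrl and 5.86, 6.00 and 6.15 in E0771shPTN. The groups did not overlap, and the difference was −0.87 (SE 0.10), which leaves 54.8% of the control level. In E0771-LG cells the values were 7.58, 7.44 and 7.58 with shCtrl and 5.90, 5.87 and 6.00 with shPTN. Here too every shPTN sample was the lower, by −1.61 on the log2 scale (SE 0.10), which leaves 32.7% of the control level. Each shPTN sample of E0771-LG cells held 1052 to 1258 reads of Ulbp1, against 3308 to 3554 in the shCtrl samples. The shPTN samples of both lines ended at like values, 5.86 to 6.15 and 5.87 to 6.00, from unlike values with shCtrl. In the tumors Ulbp1 did not separate the groups. Values of 4T1 tumors on their own log2 scale were 4.67, 4.41 and 2.50 with C44 and 2.55, 4.04 and 4.23 with 3B10 (difference −0.25, SE 0.64), with a single low tumor in each group. Leaving out single tumors gave differences from −0.93 to 0.28. MMTV-PyMT tumors held 73 to 200 reads with C44 and 103 to 160 with 3B10, and log2 CPM of 1.94, 3.38 and 2.48 against 3.30, 2.80 and 2.67 (difference 0.33, SE 0.40).

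**Figure D1:**
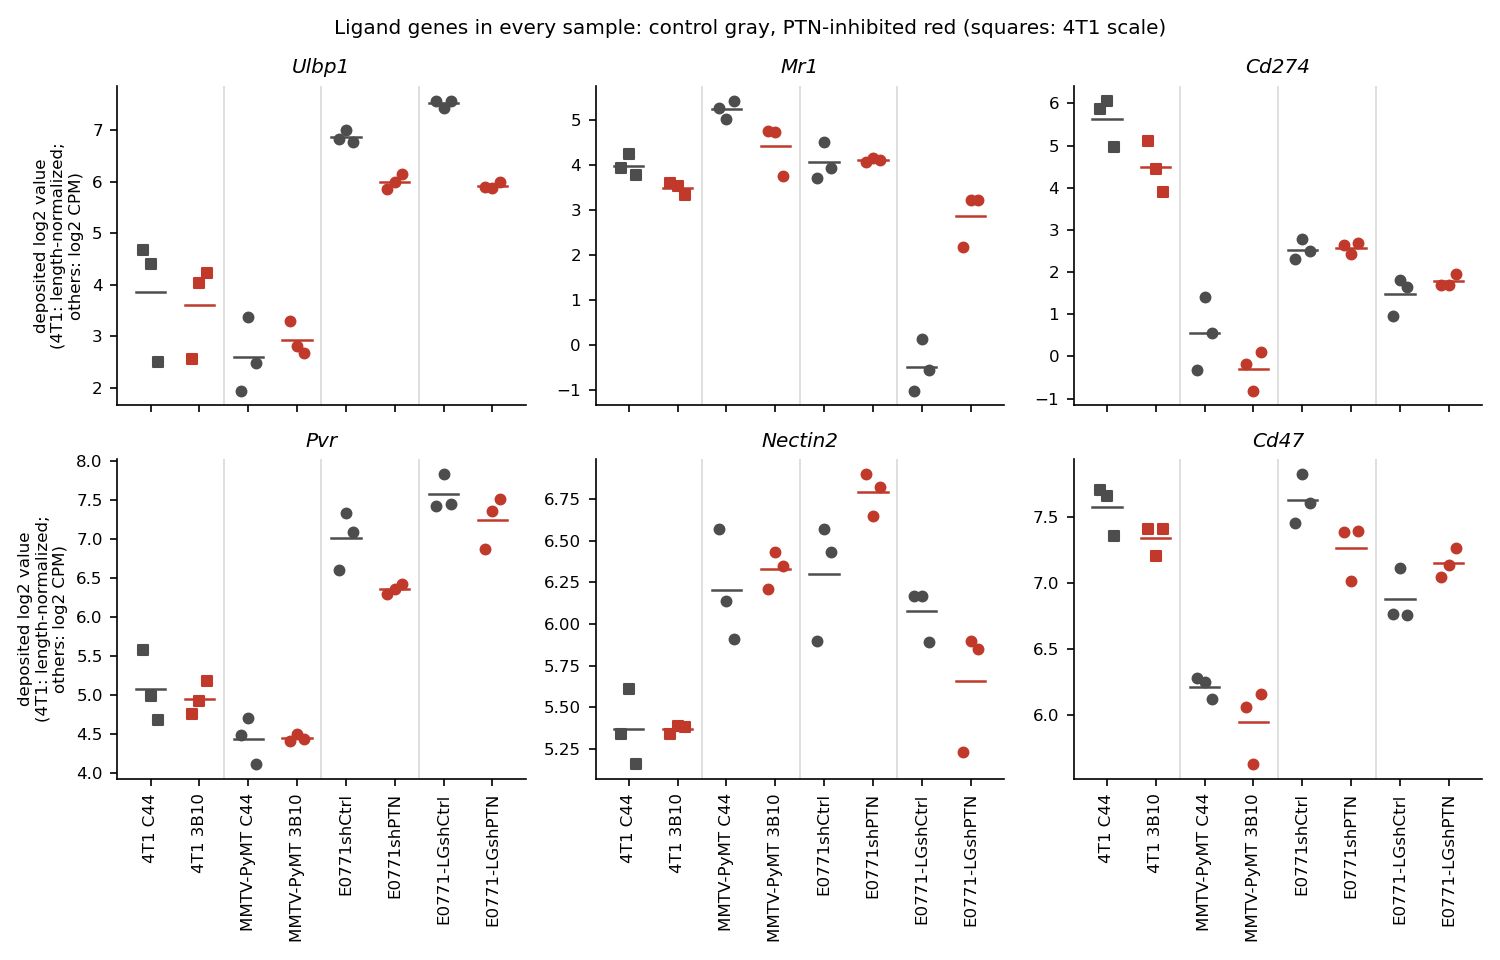
Deposited log2 value (y axis) of each ligand gene in every sample, with a bar at the mean of 3. Values are log2 CPM, or for 4T1 tumors, as squares, a log2 value treated as normalized for gene length. Control samples are gray and PTN-inhibited samples red. Ulbp1 is lower in all shPTN samples of both cell lines, and Mr1 in E0771-LGshCtrl lies between −1.02 and 0.13, under all other groups.

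Mr1 (ENSMUSG00000026471), the antigen-presenting molecule of the group, is at 155127277 to 155146814 of chromosome 1 (minus strand) with 5.98 kb of exon. Its RefSeq promoter (chr1:155146765-155147064, minus strand, GRCm38.p6) has 40.3% G and C and likewise holds none of the motifs.
Mr1: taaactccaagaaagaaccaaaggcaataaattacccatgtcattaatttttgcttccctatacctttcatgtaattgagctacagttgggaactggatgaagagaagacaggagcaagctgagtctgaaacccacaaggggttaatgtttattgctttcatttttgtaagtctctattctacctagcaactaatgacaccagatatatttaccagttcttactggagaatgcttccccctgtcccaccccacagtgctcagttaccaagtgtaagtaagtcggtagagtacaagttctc

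Mr1 differed most in E0771-LG cells. In E0771-LGshCtrl it was near the floor of the assay, at 8, 21 and 12 reads, or log2 CPM of −1.02, 0.13 and −0.57. E0771-LGshPTN samples held 95, 166 and 161 reads, or 2.18, 3.21 and 3.21. All shPTN samples were above all shCtrl samples, by 3.35 on the log2 scale (SE 0.42) or 10.2-fold. With so few reads in the controls the size depends on the offset, and a pseudocount of 1 in place of the deposited offset gave 2.28. In E0771 cells the same knockdown left Mr1 within the spread of the controls, with log2 CPM of 3.71, 4.51 and 3.94 in shCtrl and 4.07, 4.15 and 4.11 in shPTN (difference 0.06, SE 0.19). E0771-LGshPTN samples, at 2.18 to 3.21, were thus below every E0771 sample of either kind. In both tumor models Mr1 was lower with 3B10 in every tumor. The 4T1 values were 3.92, 4.25 and 3.78 with C44 and 3.59, 3.54 and 3.34 with 3B10 (difference −0.49, SE 0.18). In MMTV-PyMT tumors log2 CPM was 5.26, 5.01 and 5.43 with C44 and 4.76, 4.73 and 3.75 with 3B10 (difference −0.82, SE 0.29), and the third 3B10 tumor was the lowest. Without that tumor the difference was −0.49. The groups did not overlap in either model. In bulk tumors, fewer cells of a type and less RNA per cell cannot be told apart.

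Cd274 (ENSMUSG00000016496), which encodes PD-L1, is at 29367455 to 29388095 of chromosome 19 (plus strand) with 3.62 kb of exon, of which 511 bases are shared with an antisense transcript (AC119228.1). Whether the libraries were stranded is not stated. Its RefSeq promoter (chr19:29367188-29367487, plus strand, GRCm38.p6) has 52.7% G and C. It holds GAAANNGAA on the opposite strand at base −76 from the start, shown in capitals, and a GC box at base −31. A match of letters is a description of the promoter and not a binding site.
Cd274: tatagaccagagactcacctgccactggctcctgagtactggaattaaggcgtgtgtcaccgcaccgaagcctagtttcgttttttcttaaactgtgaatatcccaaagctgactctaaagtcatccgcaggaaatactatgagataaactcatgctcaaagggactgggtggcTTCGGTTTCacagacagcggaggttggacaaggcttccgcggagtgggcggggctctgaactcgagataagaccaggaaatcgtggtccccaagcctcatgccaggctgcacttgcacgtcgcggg

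Cd274 was low in the cells and close to the same in both arms. Log2 CPM was 2.31, 2.78 and 2.51 in E0771shCtrl and 2.64, 2.43 and 2.68 in E0771shPTN (difference 0.05, SE 0.21), from 85 to 140 and 97 to 120 reads. In E0771-LG cells it was 0.95, 1.81 and 1.65 with shCtrl and 1.70, 1.70 and 1.95 with shPTN (difference 0.31, SE 0.32), from 33 to 68 and 58 to 68 reads. The groups overlapped in both lines, and quantile normalization turned the sign in E0771-LG cells to −0.06. In 4T1 tumors the log2 values, treated as length-normalized, were 5.87, 6.07 and 4.97 with C44 and 5.11, 4.44 and 3.90 with 3B10. The difference of −1.15 (SE 0.37), to 45.1% of the C44 level, was the widest of the 6 genes in that model, and 1 3B10 tumor was above the lowest C44 tumor. MMTV-PyMT tumors had only 15 to 51 reads with C44 and 10 to 17 with 3B10, and log2 CPM of −0.31, 1.42 and 0.55 against −0.17, −0.81 and 0.11. The difference was −0.85 (SE 0.56), the groups overlapped, and without the second C44 tumor it was −0.41.

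Mean levels of leukocyte and epithelial markers also differed between C44 and 3B10 in 4T1 tumors, beside these values of Mr1 and Cd274, though no marker passed by limma. All 8 T and NK markers measured were lower on average with 3B10 (median difference −1.25), and their summed level was 172, 190 and 205 in the C44 tumors and 151, 95.9 and 40.4 in the 3B10 tumors, with Nkg7, Trbc2 or Gzmb the most abundant. All 7 macrophage and monocyte markers were lower (median −0.68), summing to 9190, 6240 and 7960 with C44 and to 3070, 6190 and 3890 with 3B10, led by Lyz2. The 4 general leukocyte markers were all lower as well (median −0.39; sums of 670, 651 and 720 against 563, 627 and 424, led by Laptm5 or Cd52), as were the 4 neutrophil markers (median −0.68; 1120, 1050 and 1880 against 1160, 734 and 579, led by S100a9 or S100a8). All 6 epithelial markers were higher with 3B10 (median 0.67), and their sum was 3220, 3490 and 3470 with C44 and 4920, 4510 and 5120 with 3B10, led by Krt18. Endothelial markers were lower for 4 of 4 genes (median −0.24) and fibroblast markers for 2 of 6 (median 0.29). None of the markers was under 1 in any 4T1 tumor. Of these markers 0 had an adjusted p under 0.05 by limma, and at an unadjusted p under 0.05 there were 5 T and NK, 5 macrophage and monocyte, 1 general leukocyte, 3 neutrophil, 2 fibroblast, 0 endothelial and 5 epithelial markers. Over all genes of this model, 719 of 11467 tested had an unadjusted p under 0.05. Their part in the differences of Mr1 and Cd274 was not tested.

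In MMTV-PyMT tumors 0 markers of the 7 lists passed by limma, and 0 had an unadjusted p under 0.05. Of the 8 T and NK markers only 2 were tested, and 2 of 2 were lower on average with 3B10 (median −0.14). Macrophage and monocyte markers were lower for 5 of 7 genes (median −0.04). The T and NK sum was 5.73, 6.7 and 6.66 CPM with C44 and 5.83, 3.31 and 7.38 with 3B10, led by Gzmb or Cd8a, from 61 to 129 reads per tumor, and only 1 of the markers was at 0 reads in any tumor, in the second 3B10 tumor. The macrophage and monocyte sum was 615, 814 and 333 with C44 and 701, 417 and 548 with 3B10, led by Lyz2 or Cd14, and the epithelial sum 5520, 5290 and 3700 against 4240, 4760 and 3780, led by Krt8 or Epcam. Fibroblast markers were lower on average with 3B10 for 6 of 6 genes (median −0.17; sums of 2230, 3400 and 1180 against 2210, 1680 and 1700) and epithelial markers for 5 of 6 (median −0.10). General leukocyte markers (1 of 4 lower, median 0.01), endothelial markers (0 of 4 lower, median 0.08) and neutrophil markers (2 of 3 tested lower, median −0.17) summed to 89.8 to 114, 88.1 to 143 and 6.24 to 34.5 with C44 and to 87.5 to 141, 96.4 to 140 and 12.9 to 18.6 with 3B10. In all 7 lists the sums overlapped between the groups, and the part of these markers and of the smaller 3B10 libraries in the lower Mr1 values was not tested.

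**Figure D2:**
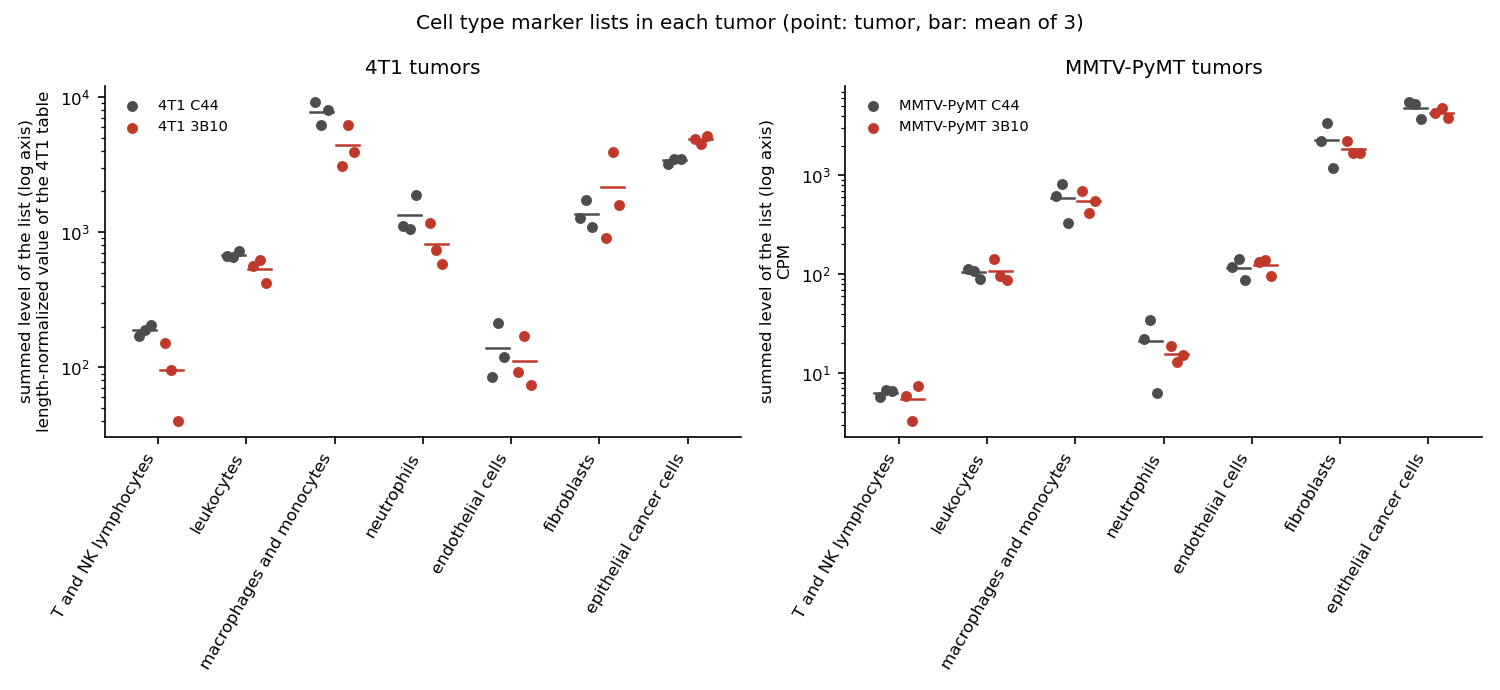
Summed level of each list of cell type markers (y axes, log scale) in each tumor, with a bar at the mean of 3. Values are CPM for MMTV-PyMT tumors and, for 4T1 tumors, deposited values treated as normalized for length. In 4T1 tumors the epithelial sum is above all C44 tumors in all 3B10 tumors, from 4510 to 5120 against 3220 to 3490, and the T and NK sum is below all C44 tumors, from 40.4 to 151 against 172 to 205.

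Pvr (ENSMUSG00000040511) and Nectin2 (ENSMUSG00000062300), whose proteins share the receptors CD226 and TIGIT, are near each other on chromosome 7 (minus strand), at 19903578 to 19921160 and at 19716644 to 19750483. They have 6.12 and 3.49 kb of exon, and 135 exonic bases of Nectin2 are shared with an antisense transcript (Gm20512). The RefSeq promoter of Nectin2 (chr7:19749524-19749823, minus strand, GRCm38.p6) holds GC boxes at bases −34, −11 and 27 and none of the other motifs, and it starts 910 bases from the GENCODE start.

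In E0771 cells these ligand genes of the same receptors moved apart. Pvr had log2 CPM of 6.61, 7.34 and 7.10 with shCtrl and 6.30, 6.37 and 6.43 with shPTN, and all shPTN samples were the lower, by −0.65 (SE 0.16), or 63.6% of control. Nectin2 had 5.90, 6.57 and 6.43 with shCtrl and 6.90, 6.65 and 6.82 with shPTN, and all shPTN samples were the higher, by 0.49 (SE 0.16), or 1.4-fold. The first shCtrl replicate was the lowest of its group for both genes, and without it the difference of Nectin2 was 0.29. In E0771-LG cells both genes had lower means with shPTN, and the groups overlapped. Pvr was 7.43, 7.84 and 7.46 with shCtrl and 6.88, 7.36 and 7.52 with shPTN (difference −0.32, SE 0.17). Nectin2 was 6.17, 6.17 and 5.89 with shCtrl and 5.23, 5.90 and 5.85 with shPTN (difference −0.41, SE 0.18), and the first shPTN replicate was the lowest for both. In the tumors neither gene separated C44 from 3B10. Pvr ranged from 4.69 to 5.58 with C44 and from 4.76 to 5.19 with 3B10 in 4T1 tumors (difference −0.13, SE 0.24), and from 4.12 to 4.71 and 4.41 to 4.50 in MMTV-PyMT tumors (0.01, SE 0.19). Nectin2 ranged from 5.16 to 5.61 and 5.34 to 5.39 in 4T1 tumors (0.00, SE 0.14), and from 5.91 to 6.57 and 6.21 to 6.43 in MMTV-PyMT tumors (0.13, SE 0.18).

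Cd47 (ENSMUSG00000055447), the signal to phagocytes, is at 49800533 to 49915010 of chromosome 16 (plus strand) with 6.28 kb of exon. Its RefSeq promoters are 2 overlapping windows, 55121 and 55128 bases inside the GENCODE gene, that hold 3 GC boxes each and none of the other motifs. Cd47 differed in opposite directions in the knockdowns. In E0771 cells log2 CPM was 7.46, 7.83 and 7.61 with shCtrl and 7.39, 7.02 and 7.40 with shPTN, and every shPTN sample was the lower (difference −0.36, SE 0.12). In E0771-LG cells it was 6.77, 7.12 and 6.76 with shCtrl and 7.05, 7.14 and 7.27 with shPTN, which overlapped (difference 0.27, SE 0.12). Tumors with 3B10 had slightly lower means of Cd47 than those with C44, and the groups overlapped. The 4T1 values were 7.71, 7.66 and 7.36 with C44 and 7.41, 7.21 and 7.41 with 3B10 (difference −0.23, SE 0.13), and log2 CPM in MMTV-PyMT tumors was 6.28, 6.25 and 6.12 against 6.06, 5.63 and 6.16 (difference −0.26, SE 0.17).

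Counted over the 6 genes, the groups did not overlap for 1 gene (Mr1) in 4T1 tumors, where this held for 11.3% of 11467 genes tested, and for 1 gene (Mr1) in MMTV-PyMT tumors, where it held for 8.34% of 11361 genes. In E0771 cells it held for 4 genes (Ulbp1, Pvr, Nectin2 and Cd47), beside 39.4% of 10394 genes, and in E0771-LG cells for 2 (Ulbp1 and Mr1), beside 57.1% of 10405 genes. The limma fits called 0% of all genes in either tumor model at an adjusted p under 0.05, with 719 genes in 4T1 and 307 in MMTV-PyMT tumors at an unadjusted p under 0.05. The share was 20.6% in E0771 cells (924 genes up and 1216 down) and 46.4% in E0771-LG cells (2531 up and 2295 down). Since these contrasts chose the 6 genes, nothing is read from the counts.

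**Figure D3:**
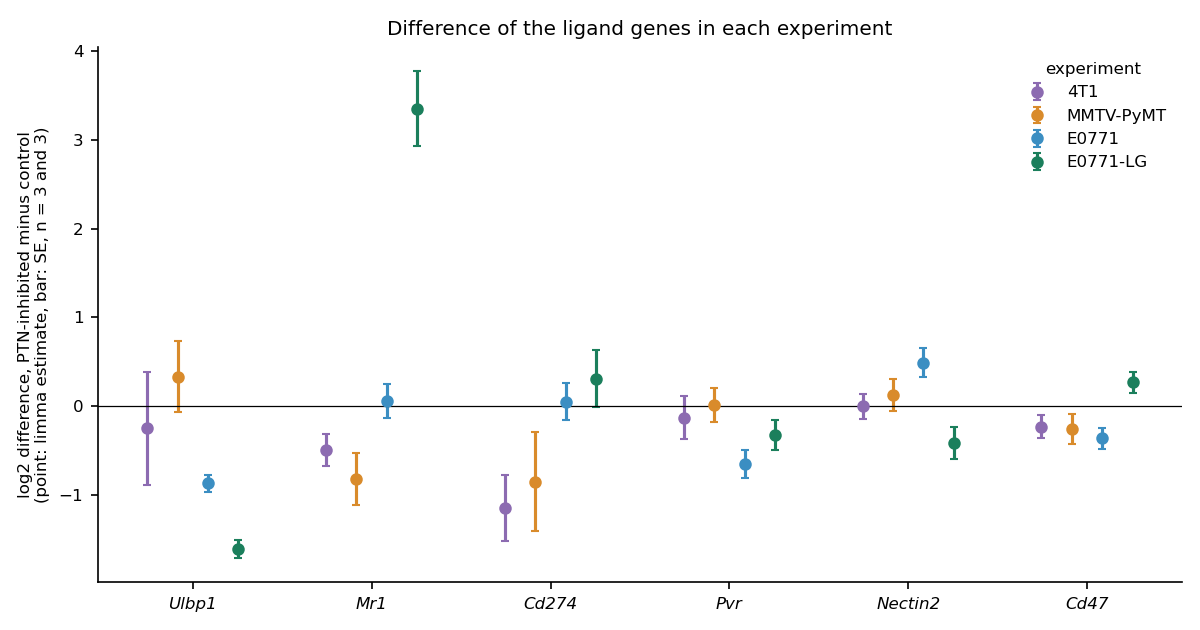
Log2 difference between PTN-inhibited and control samples (y axis; point, limma estimate; bar, SE; n = 3 and 3) for each ligand gene in the 4 experiments. Mr1 in E0771-LG cells, at 3.35, stands apart from all other differences, and Ulbp1 is below 0 in both cell lines.

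Levels of the 6 genes were compared with each other per kb of exon. In E0771shCtrl the order of mean levels was Cd47 at 31.8 ± 4.1 CPM per kb (SD, n = 3), Nectin2 at 23 ± 5.27, Pvr at 21.6 ± 5.28, Ulbp1 at 17.4 ± 1.53, Mr1 at 2.85 ± 0.851 and Cd274 at 1.61 ± 0.269. Nectin2, Pvr and Ulbp1 overlapped with their neighbours in that order, and the others did not. With shPTN, E0771 cells had Nectin2 first at 31.7 ± 2.78 CPM per kb, followed by Cd47 at 24.8 ± 3.5, Pvr at 13.5 ± 0.58, Ulbp1 at 9.56 ± 0.976, Mr1 at 2.88 ± 0.0839 and Cd274 at 1.66 ± 0.151, with no overlap between neighbours.

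E0771-LG cells ordered the genes differently. In E0771-LGshCtrl Pvr led at 31.4 ± 5.13 CPM per kb and overlapped with Ulbp1 at 27.5 ± 1.52, then came Nectin2 at 19.4 ± 2.11 and Cd47 at 18.9 ± 2.76, which also overlapped, and last Cd274 at 0.782 ± 0.226 and Mr1 at 0.121 ± 0.0523. In E0771-LGshPTN Pvr, at 25.3 ± 5.51 CPM per kb, overlapped with Cd47 at 22.7 ± 1.82, above Nectin2 at 14.8 ± 3.5 and Ulbp1 at 9.01 ± 0.444. Mr1 at 1.28 ± 0.455 overlapped with Cd274 at 0.946 ± 0.1. Ulbp1 thus stood among the highest levels in the shCtrl cells of this line and below Pvr, Cd47 and Nectin2 in its shPTN cells.

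MMTV-PyMT tumors had Nectin2 first, at 21.5 ± 5.11 CPM per kb with C44 and 23.1 ± 1.74 with 3B10. Cd47 followed at 11.8 ± 0.705 and 9.98 ± 1.85, then Mr1 at 6.34 ± 0.923 and 3.73 ± 1.29, Pvr at 3.59 ± 0.719 and 3.57 ± 0.119, Ulbp1 at 0.978 ± 0.507 and 1.14 ± 0.277, and Cd274 at 0.448 ± 0.262 and 0.225 ± 0.0703. Neighbours overlapped for Ulbp1 and Cd274 with C44 and for Mr1 and Pvr with 3B10. The 4T1 tumors were read on their own scale, treated as length-normalized, and the order of the genes rests on that reading. Cd47 was highest there, at 191 ± 24.1 with C44 and 162 ± 13.3 with 3B10, without overlap with the next gene. After it, in the order with C44, Cd274 stood at 51.8 ± 18.7 with C44 and 23.3 ± 9.98 with 3B10, Nectin2 at 41.2 ± 6.56 and 40.9 ± 0.712, Pvr at 34.7 ± 11.4 and 30.9 ± 4.75, Ulbp1 at 16.9 ± 10.4 and 13.2 ± 6.89, and Mr1 at 15.5 ± 2.75 and 10.8 ± 1.04. The order after Cd47 with 3B10 was Nectin2, Pvr, Cd274, Ulbp1 and Mr1. With C44, Cd274 and Nectin2, Nectin2 and Pvr, and Ulbp1 and Mr1 overlapped, and with 3B10 all neighbours from Pvr down did.

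**Figure D4:**
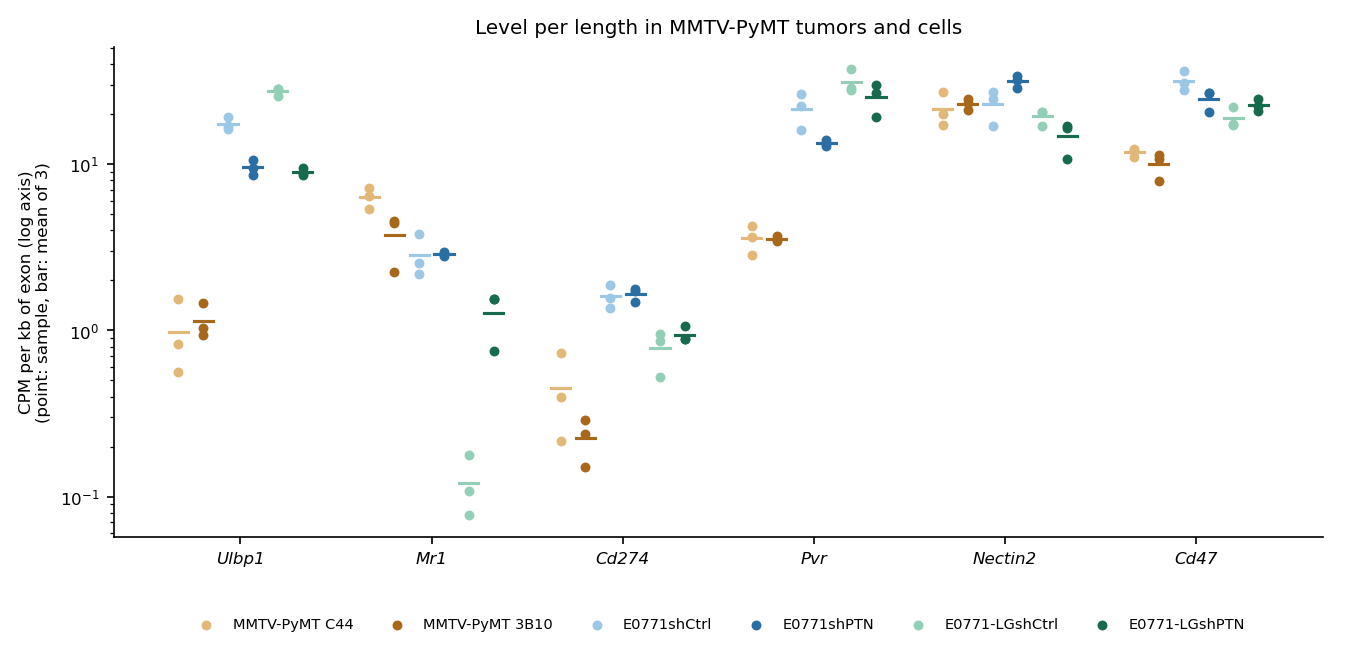
Level per length (y axis, CPM per kb of exon, log scale) of each ligand gene in the MMTV-PyMT tumors and the cells; points are samples and bars means of 3. Mr1 spans the widest range, from a mean of 0.121 in E0771-LGshCtrl to 6.34 in MMTV-PyMT tumors with C44.

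The control cells of both lines were also set side by side. Values of E0771-LGshCtrl and E0771shCtrl are part of the knockdown differences that chose the genes, so this comparison is a description too, with no test of the 6 genes. Mr1 differed most of the 6, since log2 CPM was −1.02, 0.13 and −0.57 in E0771-LGshCtrl and 3.71, 4.51 and 3.94 in E0771shCtrl. The difference was −4.54 (SE 0.33), with no overlap, and with a pseudocount of 1 it was −3.36, as so few reads make it depend on the offset. Cd47, at −0.75 (SE 0.13), and Cd274, at −1.06 (SE 0.26), were also lower in every E0771-LGshCtrl sample. Ulbp1, at 0.66 (SE 0.10), and Pvr, at 0.56 (SE 0.19), were higher in every E0771-LGshCtrl sample. Nectin2 overlapped between the lines at −0.23 (SE 0.19). The lines thus did not overlap for 5 of the 6 genes, beside 63.3% of 10600 genes tested, and limma called 57.9% of all genes (2178 up and 3958 down) at an adjusted p under 0.05, so nothing is read from this count. Over all genes the median difference was −0.15 as deposited, 0.01 with median-of-ratios and 0.00 with quantile scaling, and the median change per gene was 0.16 and 0.19. Quantile scaling took Cd274 to −0.47. The value of Pvr between the control lines was 0.35 without the first E0771shCtrl replicate.

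Set beside these values, the knockdown difference was larger in E0771-LG than in E0771 cells for Mr1, by 3.30 (SE 0.46), and more negative for Ulbp1, by −0.74 (SE 0.14). Nectin2 and Cd47 went opposite ways in the lines, so that the knockdown differences were apart by −0.90 (SE 0.27) for Nectin2 and 0.63 (SE 0.18) for Cd47. For Cd274 and Pvr they were apart by 0.26 (SE 0.37) and 0.33 (SE 0.27), about the size of the error. None of these 6 values was tested, as the genes were chosen with both knockdown differences known. With a pseudocount of 1 the value of Mr1 was 2.23, and with quantile normalization that of Cd274 was −0.10.

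For each of the 6 genes the genes with the most similar course over the 12 cell samples were sought among 10223 genes tested in both lines, by the root mean square (RMS) of the log2 differences after each gene was centred on its own mean. The nearest to Ulbp1 were Lin7c (RMS 0.17), Plscr4 (0.21) and Sipa1l3 (0.21), against a median of 0.77 over all genes. Mr1 was nearest to Cryl1 (0.44), Azin2 (0.57) and Klhl36 (0.63), against a median of 1.88. The knockdown difference of Cryl1 was 3.32 in E0771-LG cells but 0.02 in E0771 cells, and Cryl1 stood at −4.84 between the control lines. Its closeness to Mr1 in each of these follows from its choice by likeness over the same 12 samples. Cd274 was nearest to Gaa (0.10), Dlg4 (0.12) and Ift81 (0.13), with a median of 0.57. The genes nearest to Pvr were Birc3 (0.11), Rhbdf2 (0.13) and Fndc3a (0.14; median 0.62), those nearest to Nectin2 were Rasa3 (0.18), Ehd4 (0.20) and Stom (0.21; median 0.55), and those nearest to Cd47 were Vps16 (0.10), Zbtb25 (0.10) and Cog7 (0.11; median 0.43). These are descriptions of likeness over the samples.

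Other ligands, receptors and regulators of the same pathways were read from 9 lists, which hold 67 further genes of the table. In E0771 cells 4 of 45 genes tested rose and 5 fell (20%, beside 20.6% of all genes), and in E0771-LG cells 8 of 46 rose and 9 fell (37%, beside 46.4%). H2-Q4 is among these 8 but passed the filter only through the shPTN samples in which it is high. Median differences were 0.00 and −0.01, beside −0.03 and 0.05 over all genes. In the tumors the limma fits called 0 of 66 genes (4T1) and 0 of 62 (MMTV-PyMT) at an adjusted p under 0.05, with 13 and 6 at an unadjusted p under 0.05. Over all genes, 719 of 11467 (4T1) and 307 of 11361 (MMTV-PyMT) had an unadjusted p under 0.05. The listed genes had median differences of −0.17 in 4T1 and −0.15 in MMTV-PyMT tumors, beside 0.01 and 0.05 over all genes. Leukocyte markers were lower on average in 4T1 tumors too, and their part in these medians was not tested. For every listed gene said below to have risen or fallen, all 3 shPTN samples were on that side of the shCtrl mean. Calls of Raet1e, Cadm4, Nectin1 and Havcr2 in E0771 cells and of B2m, Procr, Icam2, Stat3 and Vcam1 in E0771-LG cells were lost when certain single samples were left out. With all 24 samples in 1 fit 13 calls were lost, among them those of Lgals3, Procr and Raet1e in both lines and of Raet1a and Tnfrsf10b in E0771-LG cells.

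Like Ulbp1, the products of Raet1a and Raet1e bind NKG2D, but the genes are near-identical copies of others, so which copy the reads came from is uncertain. In E0771 cells 1 of these 2 genes passed, and Raet1e fell with Ulbp1, by 0.48 (SE 0.14, adjusted p = 0.0301, lower in 3 of 3 samples). In E0771-LG cells both rose while Ulbp1 was lower, Raet1e by 0.77 (SE 0.19, adjusted p = 0.00804, higher in 3 of 3 samples) and Raet1a by 0.64 (SE 0.16, adjusted p = 0.00729). The list had medians of −0.31 (E0771), 0.71 (E0771-LG), 0.01 (4T1) and −1.18 (MMTV-PyMT), the last through Raet1e in the second 3B10 tumor, at 4 reads against 88 and 117 in the other 3B10 tumors.

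Among class I-like and nonclassical class I genes, the family of Mr1, 0 of 10 rose and 1 fell in E0771 cells and 3 of 11 rose and 1 fell in E0771-LG cells (medians −0.03 and 0.17; −0.12 for 4T1 and −0.36 for MMTV-PyMT). Cd1d1, which presents lipids to NKT cells, rose beside Mr1 in E0771-LG cells, from 61, 93 and 69 reads to 269, 217 and 154, by 1.48 (SE 0.23, adjusted p = 0.000625). H2-Q4 went from 0, 1 and 1 reads to 50, 63 and 34, and its difference of 5.50 (SE 0.76) depends on the offset, being 1.78 with a pseudocount of 1. Since it passed the filter only through the shPTN samples, it had to differ, and its p is not used. H2-Q genes are close copies of each other, so this assignment is uncertain. B2m, the light chain of class I molecules, rose by 0.42 (SE 0.15, adjusted p = 0.0474), and Procr fell in both lines, in E0771 by 0.57 (SE 0.13, adjusted p = 0.0101) and in E0771-LG cells by 0.36 (SE 0.13, adjusted p = 0.0449).

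Of the B7 family and checkpoint ligands other than Cd274, 1 of 6 fell in E0771 cells and 1 of 5 rose and 1 fell in E0771-LG cells (medians −0.03 and 0.24; −0.47 for 4T1 and −0.36 for MMTV-PyMT). Lgals3, a galectin gene, fell in E0771 cells (−0.56, SE 0.12, adjusted p = 0.00712) and rose in E0771-LG cells (0.66, SE 0.09, adjusted p = 0.000245), each in 3 of 3 samples, and Lgals9 fell in E0771-LG cells (−0.78, SE 0.17, adjusted p = 0.00432). Regulators of PD-L1 gave 3 of 12 genes lower in E0771-LG cells, with Cd274 itself close to the same (list medians 0.02 for E0771 and −0.09 for E0771-LG; −0.17 for 4T1 and −0.08 for MMTV-PyMT). The 3 were Cmtm4, which stabilizes PD-L1 protein (−1.05, SE 0.12, adjusted p = 9.8e-05, lower in 3 of 3 samples), Jak1 (−0.53, SE 0.10, adjusted p = 0.00186) and Stat3 (−0.42, SE 0.14, adjusted p = 0.0311).

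Nectins and nectin-like genes other than Pvr and Nectin2 gave 2 of 3 higher in E0771 cells, Cadm4 (0.51, SE 0.14, adjusted p = 0.0289) and Nectin1 (0.29, SE 0.09, adjusted p = 0.0401), and 1 of 3 higher in E0771-LG cells, Cadm4 (0.95, SE 0.17, adjusted p = 0.00129). Their medians were 0.29 and −0.03, with 0.17 for 4T1 and −0.16 for MMTV-PyMT. In the list around Cd47, 1 of 4 genes rose in E0771 and 1 of 4 fell in E0771-LG cells (medians 0.08 and −0.14; −0.23 for 4T1 and 0.11 for MMTV-PyMT). In both lines it was Thbs1, whose product thrombospondin-1 is a secreted ligand of CD47. Thbs1 rose in E0771 cells by 2.70 (SE 0.34, adjusted p = 0.00178, 3 of 3 samples; adjusted p = 0.0668 with the replicate number as a covariate) and fell in E0771-LG cells by 2.07 (SE 0.24, adjusted p = 0.000117, 3 of 3 samples), in each line opposite in sign to Cd47.

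TNF family genes gave 1 of 4 lower in E0771 cells, Fas (−1.63, SE 0.35, adjusted p = 0.00859), and 1 of 3 higher in E0771-LG cells, Tnfrsf10b (0.61, SE 0.14, adjusted p = 0.00558), both of which encode death receptors (medians −0.39 and 0.11; −0.03 for 4T1 and −0.15 for MMTV-PyMT). Adhesion ligands gave 0 of 3 in E0771 cells, with Icam1 at −0.55 by limma (SE 0.23, adjusted p = 0.112) as the 1 gene at an unadjusted p under 0.05. In E0771-LG cells 3 of 4 fell, namely Vcam1 (−0.70, SE 0.20, adjusted p = 0.0154), Icam1 (−0.62, SE 0.12, adjusted p = 0.00171) and Icam2 (−0.53, SE 0.20, adjusted p = 0.0473). The medians were −0.17 and −0.57, with −0.23 for 4T1 and 0.09 for MMTV-PyMT. Between the control lines, where 57.9% of all genes were called, E0771-LGshCtrl was higher for Icam2 (3.20, SE 0.36, adjusted p = 3.27e-06) and Vcam1 (2.84, SE 0.24, adjusted p = 1.65e-07).

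**Figure D5:**
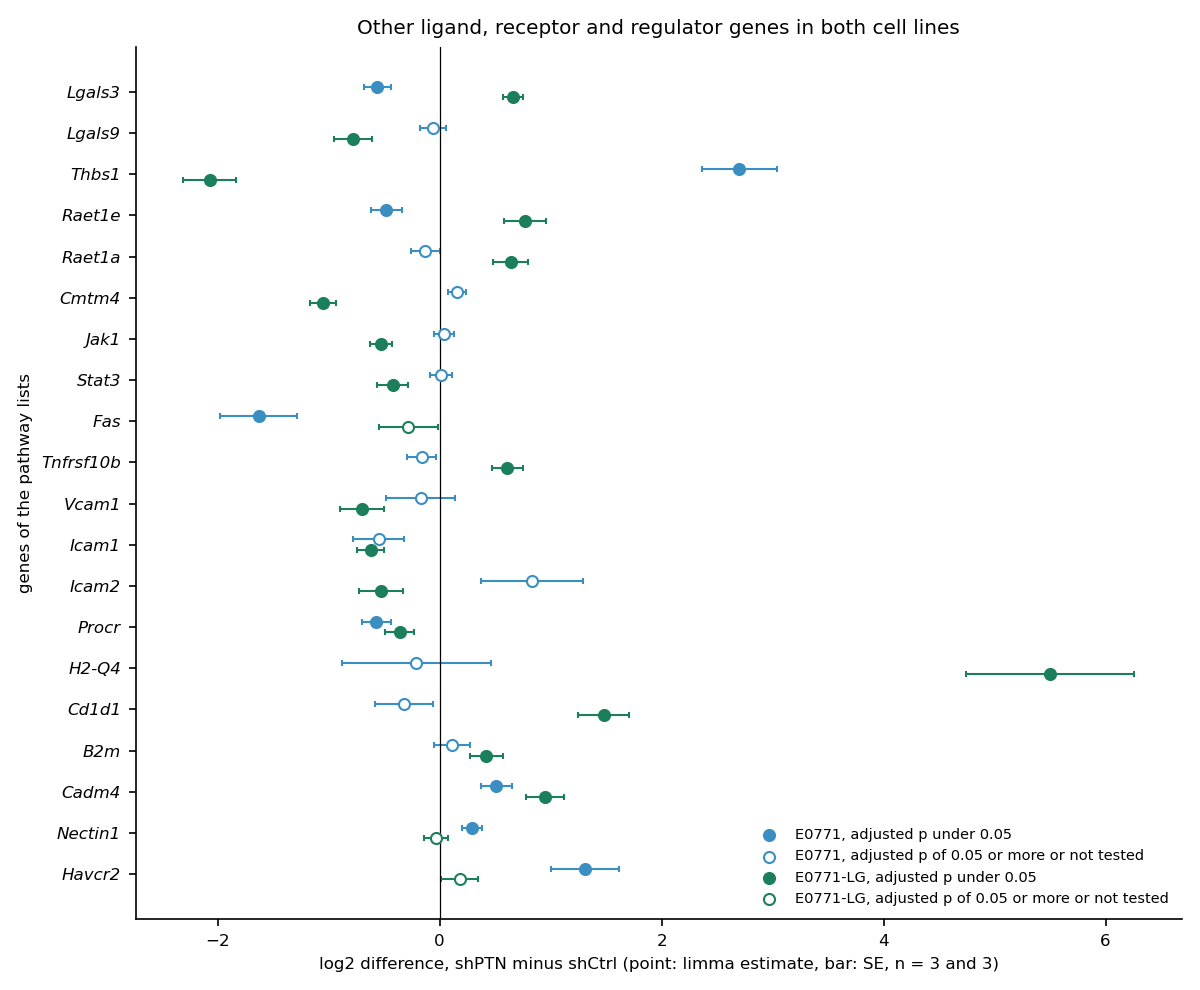
Log2 difference between shPTN and shCtrl (x axis; point, limma estimate; bar, SE; n = 3 and 3) of the other ligand, receptor and regulator genes that passed in either line and are reported here; filled points have an adjusted p under 0.05. H2-Q4 in E0771-LG cells, at 5.50, passed the filter only through the shPTN samples and had to differ, so nothing is read from its filled point. Lgals3, Thbs1 and Raet1e passed in opposite directions in the lines, and Cadm4 and Procr in the same direction.

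The difference between the lines was tested for these listed genes, which were chosen with earlier results known. The knockdown effect differed for 13 of 49 genes (26.5%, beside 34% of 10600 genes tested), 7 with a higher and 6 with a lower effect in E0771-LG cells. The 7 include H2-Q4, which the filter let in only through E0771-LGshPTN. Among the others were Raet1e (1.25, adjusted p = 0.00208 by the limma interaction), Cd1d1 (1.80, adjusted p = 0.00185), Lgals3 (1.21, adjusted p = 7.55e-05), Thbs1 (−4.78, adjusted p = 2.93e-05) and Cmtm4 (−1.22, adjusted p = 4.72e-05), while for Icam1 (−0.07, adjusted p = 0.868) it did not pass.

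Receptors that read these ligands were measured for 6 genes of their list. Hcst and Tyrobp, whose products signal for NKG2D and other NK receptors, had 0 reads in each of the 12 cell samples, and Pdcd1, which encodes PD-1, had 0 to 4. Havcr2 was the only receptor gene tested in E0771 cells and rose there by 1.31 (SE 0.31, adjusted p = 0.0132), from 38, 44 and 31 reads to 93, 142 and 57. In E0771-LG cells 0 of 2 receptor genes passed by limma, with 0 at an unadjusted p under 0.05, and Havcr2 differed by 0.18 (SE 0.17, adjusted p = 0.422). The list median was −0.35 in 4T1 tumors, beside 0.01 over all genes. In MMTV-PyMT tumors only Tyrobp and Havcr2 passed the filter (median 0.01), and the others had few reads. There Tigit had 4 to 9 reads with C44 and 0 to 3 with 3B10, and Pdcd1 6 to 11 and 1 to 2, without overlap. Both genes were below the filter and not tested, and every 3B10 library was smaller than every C44 library. Of 11361 genes tested in this model, 8.34% did not overlap either. Klrd1, at 5 to 14 and 0 to 6, and Hcst, at 5 to 10 in each group, overlapped. Tigit, the inhibitory receptor for the products of Pvr and Nectin2, had values of 4.93, 5.07 and 4.09 in 4T1 tumors with C44 and 4.21, 4.92 and 4.77 with 3B10, which overlapped.

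Summed levels of some marker lists also differed with shPTN in the cultures. No count of tested markers is given, since several of them passed the filter only through the group in which they are high. Fibroblast markers summed to 74.8, 101 and 86.3 CPM in E0771shCtrl and 331, 293 and 330 in E0771shPTN, led by Pdgfra and by Col3a1, and to 92, 145 and 107 in E0771-LGshCtrl and 58.3, 66.2 and 73.4 in E0771-LGshPTN, led by Pdgfra. In E0771-LG cells the fibroblast markers went both ways, and not every one moved with the sum. Epithelial markers summed to 158, 204 and 164 CPM in E0771-LGshCtrl and 424, 565 and 516 in E0771-LGshPTN, led by Krt8, and overlapped in E0771 cells. The general leukocyte sum was 15.4, 21.3 and 19.4 in E0771shCtrl and 47, 32.1 and 37.6 in E0771shPTN, led by Coro1a. In E0771-LG cells it was 90.9, 88.2 and 88.6 with shCtrl and 47.3, 52.8 and 55.9 with shPTN, led by Laptm5, and not every leukocyte marker moved with the sum. In both lines 2 of the 4 leukocyte markers were under 1 CPM in every sample. Macrophage and monocyte markers in E0771 cells summed to 17, 32.4 and 25.7 with shCtrl, led by Lyz2 or Cd68. With shPTN they summed to 48.5, 35.7 and 41.2, led by Lyz2 at 36.9, 25.4 and 31.8 CPM. The sum followed Lyz2, while the tested markers of this list had a median difference of −0.63. Endothelial markers in E0771 cells summed to 8.06, 8.62 and 8.73 with shCtrl and 12, 11.9 and 11 with shPTN, led by Tie1. T and NK markers in E0771-LG cells summed to 1.27, 1.28 and 0.484 CPM with shCtrl and 1.47, 3.21 and 2.35 with shPTN, from 9 to 58 reads. The part of these shifts in the differences of Ulbp1, Mr1 and the other ligand genes was not tested.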

How the data were processed

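RNA of 12 tumors and 12 cell samples was sequenced. The authors aligned reads to mm10 (GRCm38) with HISAT2, counted them with featureCounts and tested genes with edgeR; limma is also named, and no versions are stated. The authors deposited log2 values for 12091 genes, and the step that made them and the filter on genes are not stated. In 18 samples the deposited log2 values equalled log2 CPM once 0.5 reads were added, and 100% of values up to 1000 reads were whole within 0.01 reads. The 4T1 values had no such steps (2.52 to 2.82% whole). Against the E0771-LG values they declined with log2 gene length (slope −0.534 over 9657 genes, beside 0.31 for MMTV-PyMT and 0.181 for E0771), so they were treated as normalized for length, and no counting error can be given. Between replicates the variance was 8.79 to 103 times that of counting.

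Values were used as deposited, with levels off the log scale taken above the lowest value of each sample. Each experiment was fitted across all genes with limma 3.58.1 in R 4.3.3 (lmFit, eBayes with trend and robust), with Benjamini-Hochberg adjustment over the genes with a value of at least 1 in at least 3 of 6 samples. The 12 cell samples were fitted together for the lines and the interaction. Alternatives were other filters, pseudocounts of 1 and 0.1, scaling by median-of-ratios or by quantiles, limma-voom weights, eBayes that is not robust, all 24 samples in 1 fit, the replicate number as a covariate, and each replicate left out; those for Ptn and for the ligand genes between the knockdowns were chosen after seeing the data. Exon lengths came from GENCODE M21 on GRCm38, and Python 3.11.15, numpy 2.4.6, pandas 2.3.3 and matplotlib 3.10.9 were used.

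The 6 genes and the lists were chosen with earlier results of these data known. Named genes are the 6, Ptn, and from each list in each experiment up to 3 genes per direction with the largest difference among those with an adjusted p under 0.05, or else at most the 2 with the smallest p; receptors may be named with their levels. Named for each of the 6 are also the 3 genes with the smallest RMS difference. The lists were NKG2D ligands, class I-like and nonclassical class I molecules, B7 family and checkpoint ligands, nectins, CD47 signals, TNF family, adhesion ligands, PD-L1 regulators and receptors, and markers of T and NK lymphocytes, leukocytes, macrophages and monocytes, neutrophils, endothelial cells, fibroblasts and epithelial cancer cells. Raet1b, Raet1c, Raet1d, H60a, H60b, H60c, Cd1d2, Cd80, Fgl1, Btnl2, Cadm3, Tnfsf4, Tnfsf18, Cd70, Fasl, Tnfsf14, Cdh2, Klrk1, Cd226, Cd96, Klrc1, Klrc2, Cd244a, Lag3, Ctla4, Cd28 and Icos, and the markers Cd4, Trac, Trbc1, Ncr1, Klrb1c, Ly6g, Cxcr2, Cd79a and Ms4a1, were not analysed here. Some genes of the lists are counted in the totals and not reported here by name.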

Additional observations from a re-analysis of the deposited data

Results flagged for a closer look

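The effect of the Ptn shRNA on 13 of the listed genes differed between E0771-LG and E0771 cells by the limma interaction test over all genes (log2, E0771-LG minus E0771). Among NKG2D ligands this was 0.77 for Raet1a (adjusted p = 0.0128) and 1.25 for Raet1e (adjusted p = 0.00208). Among class I-like genes it was 1.80 for Cd1d1 (adjusted p = 0.00185) and 5.71 for H2-Q4. H2-Q4 had 0 to 2 reads in every cell sample but those of E0771-LGshPTN, through which alone it passed the filter, so it had to differ and its p is not used. The galectin genes differed in opposite directions, by 1.21 for Lgals3 (adjusted p = 7.55e-05) and −0.72 for Lgals9 (adjusted p = 0.0253). Thbs1 differed by −4.78 (adjusted p = 2.93e-05), since it rose in 3 of 3 E0771shPTN and fell in 3 of 3 E0771-LGshPTN samples. The death receptor genes Fas and Tnfrsf10b differed by 1.35 (adjusted p = 0.0346) and 0.77 (adjusted p = 0.00757), and the regulators Cmtm4 and Jak1 by −1.22 (adjusted p = 4.72e-05) and −0.57 (adjusted p = 0.00622). Of the receptors, Havcr2 differed by −1.13 (adjusted p = 0.0235) and Tigit by −2.40 (adjusted p = 0.03), the latter on 3 to 36 reads per cell sample.

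Of the 6 ligand genes, Nectin2 was higher in every E0771shPTN sample and had a lower mean in E0771-LGshPTN, a difference of −0.90 between the lines, and Cd47 went the opposite way, at 0.63. Neither difference was tested.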

How the results depend on the processing

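Of 1166 alternative values, 1085 kept their direction and their side of the threshold or moved by less than the spread between replicates, 65 were on the other side of the threshold (62 of them for single listed genes), 16 moved further, and 0 of the called values changed sign. Those of the 65 outside the single listed genes were values of Cd274 and Pvr between the control lines. The 6 genes are a description in that comparison, so nothing is read from the side of the threshold on which their values fell. With all 24 samples in 1 fit, the genes past the threshold were 6 in place of 0 in 4T1 and 912 in place of 2140 in E0771, and the listed genes 3 in place of 9 in E0771 and 11 in place of 17 in E0771-LG cells. Without single replicates the genes past the threshold ranged from 1164 to 2139 in E0771 (lowest without replicate 3 or 2 of E0771shCtrl or replicate 3 of E0771shPTN) and from 3206 to 5113 in E0771-LG cells (lowest without replicate 2 of E0771-LGshPTN), and the listed genes in E0771 from 5 to 10, with 5 without each of the same 3 samples. The value of Pvr between the control lines ranged from 0.35 to 0.72. A pseudocount of 1 took Mr1 in E0771-LG cells from 3.35 to 2.28, its difference between the knockdowns from 3.30 to 2.23, and that between the control lines from −4.54 to −3.36. Quantile normalization took the Cd274 difference in E0771-LG cells from 0.31 to −0.0585, its difference between the knockdowns from 0.26 to −0.10, its difference between the control lines from −1.06 to −0.47, and the Ulbp1 difference between the knockdowns from −0.74 to −0.61. Beyond the smaller number of samples where replicates were left out, the cause was not tested.

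Of 26 calls of single listed genes, 9 passed in every alternative with a value and 17 missed the threshold in at least 1. The 9 include H2-Q4 in E0771-LG cells, which passed the filter only through the shPTN samples and had to differ, so nothing is read from its passing. In E0771 cells, Raet1e, Cadm4 and Nectin1 passed in 10 of 16 alternatives, with adjusted p up to 0.773, 0.143 and 0.456. All 3 missed it without replicate 2 of E0771shCtrl or replicate 3 of E0771shPTN, Cadm4 and Nectin1 also without replicate 1 and Raet1e and Nectin1 without replicate 3 of E0771shCtrl, Raet1e without replicate 2 and Cadm4 without replicate 1 of E0771shPTN, and Havcr2 missed it without replicate 3 of E0771shCtrl (adjusted p = 0.0512). In E0771-LG cells, B2m, Procr and Icam2 passed in 8 of 16 and Stat3 in 10 of 16 (adjusted p up to 0.224, 0.165, 0.344 and 0.117). Of the E0771-LGshCtrl samples, B2m and Procr needed replicates 1 and 3, Icam2 all, and Stat3 replicates 2 and 3; of the E0771-LGshPTN samples, B2m and Icam2 needed replicates 2 and 3, Procr 1 and 3, and Stat3 1 and 2. Vcam1 missed it without replicate 2 of E0771-LGshPTN (adjusted p = 0.0665). Procr and Lgals3 in E0771 and Raet1e, Raet1a, Lgals3 and Tnfrsf10b in E0771-LG cells missed it only with all samples in 1 fit. With no filter 7 calls were lost (Raet1e, Cadm4 and Nectin1 in E0771, and B2m, Procr, Icam2 and Stat3 in E0771-LG cells), and with all samples in 1 fit 13, which also include Raet1e, Cadm4 and Nectin1 in E0771 and B2m, Procr and Icam2 in E0771-LG cells. Quantile scaling lost B2m, Procr and Stat3, voom weights B2m and Icam2, and eBayes that is not robust Procr, all in E0771-LG cells. Thbs1 in E0771 cells missed it with the replicate number as a covariate (adjusted p = 0.0668). Single listed genes were refitted for their knockdown effects, and the differences between the lines as a count, which stayed between 10 and 17 beside 13.

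Samples with the same number, after subtracting the group mean of each gene, had r of −0.327, 0.436 and −0.253 in 4T1, −0.036, 0.132 and 0.208 in MMTV-PyMT, −0.027, 0.141 and −0.037 in E0771 and 0.158, 0.237 and −0.117 in E0771-LG, so no pairing was used; with a replicate block, 2450 genes passed in E0771 and 5012 in E0771-LG cells.

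Leaving out single samples changed the sign of uncalled differences of Ulbp1 in 4T1 (−0.93 to 0.28) and MMTV-PyMT tumors, of Pvr and Nectin2 in both tumor models, and of Mr1 and Cd274 in E0771 cells. Without single samples, Cd274 ranged from −1.48 to −0.86 in 4T1 and −1.28 to −0.41 in MMTV-PyMT tumors, and Mr1 from −0.60 to −0.36 in 4T1 and up to −0.49 in MMTV-PyMT tumors. Cd47 ranged from −0.34 to −0.16 in 4T1, −0.37 to −0.10 in MMTV-PyMT, −0.45 to −0.24 in E0771 and 0.21 to 0.39 in E0771-LG. Nectin2 ranged from 0.29 to 0.62 (E0771) and −0.54 to −0.20 (E0771-LG), and Pvr from −0.85 to −0.49 (E0771) and −0.45 to −0.14 (E0771-LG). A filter of at least 1 in every sample left no value for Mr1 between the lines, and voom weights were not run for 4T1, which has no recovered reads. Depth limits Mr1 in E0771-LGshCtrl (8 to 21 reads) and Cd274 in MMTV-PyMT tumors (10 to 51 reads).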
